A study of Rattus norvegicus with 8 samples.

Results

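The genes described here are 9 of the system that makes and controls plasmin and of the neighbouring start of blood coagulation: the plasminogen activators Plat and Plau, the receptor Plaur, the proenzyme gene Plg, the inhibitors Serpinb2, Serpine2 and Serpinf2, and the pair F3 and Tfpi. They were chosen by gene symbol, with earlier results of the same comparison known, and a gene with several probe sets was to be read from its brightest one. Each of the 9 has 1 probe set, so that step chose nothing. They are 9 of 14511 genes measured. The samples are perfused livers of male Wistar rats aged 6 to 10 weeks, in 2 groups of 4 arrays. In the normoosmotic group the liver was perfused with Krebs-Henseleit buffer, a bicarbonate saline, of 305 mosm/L, and in the hypoosmotic group with a more dilute one of 225 mosm/L, which makes hepatocytes swell. The time point of every array is 180 min. A liver perfused with buffer receives no fresh blood, so the cells in it are those the organ still held. Whether each sample was a liver of its own is not said in the labels, so the tests measure a spread between samples that may be technical.

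Plasminogen is a proenzyme that hepatocytes secrete into plasma. Tissue plasminogen activator (the product of Plat) and urokinase (Plau) cut it to plasmin, which dissolves fibrin, degrades matrix and activates other proteases. Urokinase works largely at the cell surface, bound to its receptor (Plaur). Serpins of several clades hold the system in check by trapping the activators or plasmin itself. In liver the proenzyme and the plasmin inhibitor come from hepatocytes, while activators and their inhibitors come largely from endothelial cells, macrophages and stellate cells. Tissue factor (F3) starts coagulation, which makes the fibrin that plasmin removes, and tissue factor pathway inhibitor (Tfpi) blocks that start.

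For a view of the DNA in front of these genes, 250 bases before a transcript start are shown for 3 members. RefSeq windows (build GRCr8) were found for 7 of the 9, Serpinb2, Plau, Plaur, Serpine2, Serpinf2, Plg and Tfpi. Plau and Plaur are shown as the genes of an activator and its receptor, whose mean differences had opposite signs though neither passed the test, and Plg as the proenzyme gene, whose means were close. The windows of Serpinb2, Serpine2 and Tfpi are not shown, since each annotated gene begins upstream of the transcript start that its window uses. The stretches are GRCr8 chr15:3511988-3512237 on the minus strand for Plau, chr1:89181113-89181362 on the plus strand for Plaur and chr1:50915407-50915656 on the minus strand for Plg. They are written along the gene's own strand, and capitals mark matches to 7 motifs searched on both strands: the AP-1 motif TGANTCA, the core of the cAMP response element TGACGT, the core TGGAAA of the element read by NFAT and NFAT5, the TATA box, spelled as TATAAA here, the GC box with the letters GGGCGG, the HNF1 half-site GTTAAT and the HNF4 core CAAAGTC.
Plau: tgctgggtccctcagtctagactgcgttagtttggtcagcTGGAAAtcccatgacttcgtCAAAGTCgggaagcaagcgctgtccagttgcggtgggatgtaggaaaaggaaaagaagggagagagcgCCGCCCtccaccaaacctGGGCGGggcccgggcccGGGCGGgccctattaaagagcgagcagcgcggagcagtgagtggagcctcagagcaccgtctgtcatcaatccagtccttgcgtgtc
Plaur: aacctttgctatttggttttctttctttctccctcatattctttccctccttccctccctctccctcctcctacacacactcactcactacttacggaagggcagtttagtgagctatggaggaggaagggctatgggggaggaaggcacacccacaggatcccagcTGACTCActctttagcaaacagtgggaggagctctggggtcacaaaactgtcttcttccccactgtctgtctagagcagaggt
Plg: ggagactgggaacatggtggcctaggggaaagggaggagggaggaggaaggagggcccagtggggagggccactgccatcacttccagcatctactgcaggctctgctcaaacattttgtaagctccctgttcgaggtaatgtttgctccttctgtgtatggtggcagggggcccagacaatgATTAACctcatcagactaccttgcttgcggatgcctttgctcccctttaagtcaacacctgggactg
Plaur holds 1 AP-1 match, beginning 83 bases before the start. Plau holds 1 NFAT core, 1 HNF4 core and 3 GC boxes. Plg holds 1 HNF1 half-site, 67 bases before the start. The window of Serpinf2, which uses the annotated gene's own start, is not shown and holds none of the 7 motifs. Among all 33469 windows cut the same way, 6.34% hold the AP-1 motif, 19.7% the NFAT core, 30.5% a GC box, 3.95% the HNF4 core and 6.45% the HNF1 half-site, while the cAMP core is in 6.95% and the TATA box in 12.9%. A match describes these letters and is not a shown site.

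The values are log2 expression values as deposited, so a difference of 1 is a doubling of signal, and levels of different genes are not compared because each probe set has its own brightness. Array medians over all probe sets lay between 3.92 and 4.05. A level of 3.37, the 95th percentile of the mean values of 53 odorant receptor genes, was taken as near background. The liver label was borne out by 12 hepatocyte markers, whose mean value was 11.42 to 11.61 on every array. In the fit across all genes (limma, Benjamini-Hochberg adjustment, threshold 0.05) 1026 of 14511 genes passed, or 7.07%, with 2.45% higher and 4.62% lower in hypoosmotic livers. Falls made up 65.3% of these calls, 75.5% after median centring of the arrays and 60.7% after further quantile normalization. Among the 9 genes 4 passed, Serpinb2 and Serpine2 higher and Plat and F3 lower, and nothing is read from that count because the genes were chosen with this comparison known. For the same reason their differences are given with standard errors (SE) and 95% confidence intervals of the fit, and without p-values. Whether a member passed in this or another fit is likewise only described, since every fit used arrays of that comparison. The median difference, hypoosmotic minus normoosmotic, was -0.04 for the 9 genes and 0.02 over all genes. The groups did not overlap in 5 of the 9, against 13.5% of all genes.

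**Figure D1:**
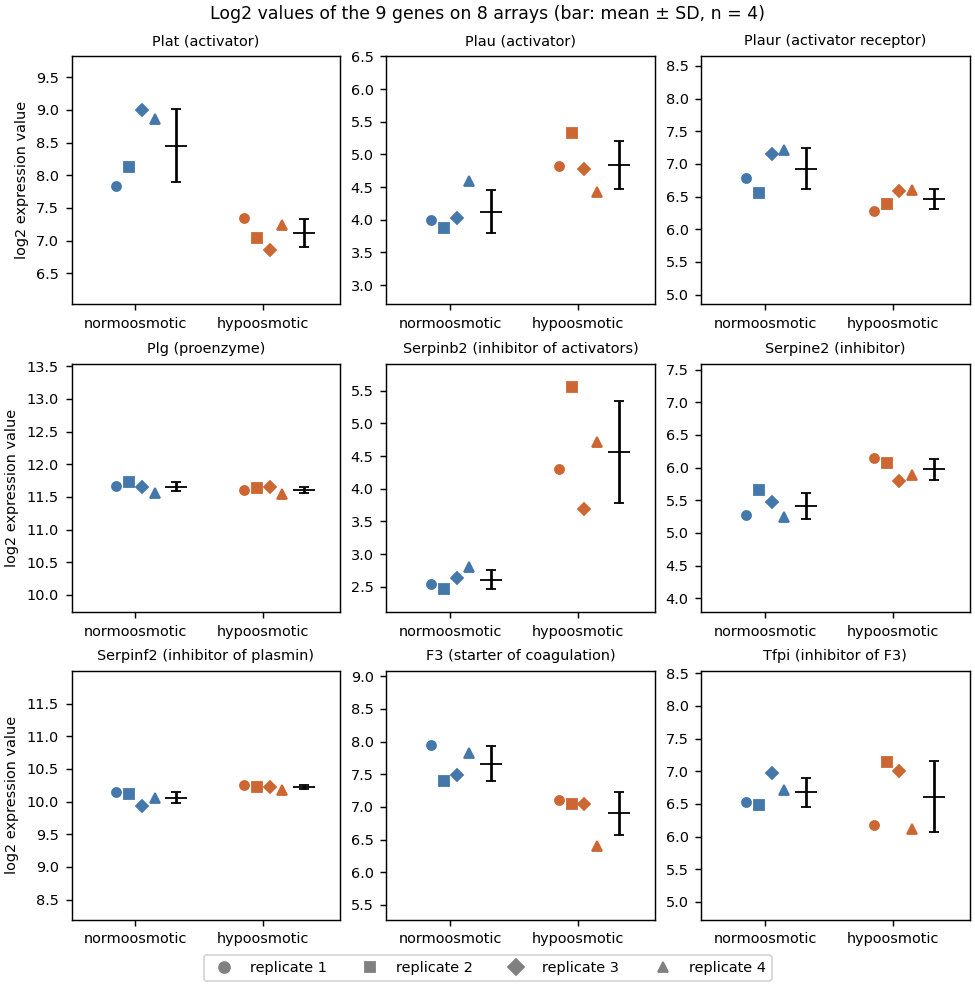
Log2 expression values (vertical axis, the same span of log2 units in every panel) of the 9 genes on the 4 normoosmotic and 4 hypoosmotic arrays, with symbols for replicate numbers and a bar for the mean ± SD (n = 4). Plat and F3 sit lower and Serpinb2 and Serpine2 higher on all 4 hypoosmotic arrays, while Plg lies between 11.55 and 11.73 on all 8.

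Of the activators, Plat was lower in hypoosmotic livers and Plau had a higher mean there but did not pass. Plat, which encodes the activator that endothelium releases into blood, had values of 7.84, 8.12, 9.0 and 8.86 on normoosmotic replicates 1 to 4 and of 7.34, 7.04, 6.85 and 7.24 on hypoosmotic replicates 1 to 4. The groups did not overlap, and normoosmotic replicates 3 and 4 stood above the other normoosmotic arrays. The means were 8.46 ± 0.56 and 7.12 ± 0.22 (SD, n = 4 each), a difference of -1.34 ± 0.24 (SE) with an interval from -1.86 to -0.81, or 2.53-fold lower. With 1 array left out the difference lay between -1.54 and -1.16, and Plat passed in all 8 such fits. Against a minimum fold change of 1.2 it did not pass.

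Plau, the gene of urokinase, had 3.99, 3.88, 4.03 and 4.60 in the normoosmotic and 4.83, 5.33, 4.77 and 4.43 in the hypoosmotic group. Normoosmotic replicate 4 lay above hypoosmotic replicate 4, and this was the only overlap. The means were 4.12 ± 0.32 and 4.84 ± 0.37 (SD, n = 4 each), and the difference was 0.72 ± 0.20 (SE), with an interval from 0.27 to 1.16. Plau did not pass over all genes, but it did without normoosmotic replicate 4, without hypoosmotic replicate 4, with array weights and without the dimmest 30% of genes. The 2 arrays whose removal brings it past the threshold are those that overlap.

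Plaur, whose product holds urokinase on the cell surface, pointed the other way from Plau. It had 6.79, 6.55, 7.15 and 7.22 in normoosmotic and 6.28, 6.38, 6.58 and 6.60 in hypoosmotic livers, a difference of -0.47 ± 0.16 (SE, interval -0.81 to -0.13). Normoosmotic replicates 3 and 4 were again the highest, as for Plat, and normoosmotic replicate 2 lay within the hypoosmotic range. Plaur did not pass, except without normoosmotic replicate 2 and with the replicate number as a term of the fit.

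The proenzyme gene differed little. Plg had 11.67, 11.73, 11.66 and 11.56 in normoosmotic and 11.61, 11.64, 11.65 and 11.55 in hypoosmotic livers. The ranges overlapped almost entirely. The difference was -0.04 ± 0.09 (SE), and its interval from -0.24 to 0.16 leaves room for small changes in either direction.

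Among the inhibitors, Serpinb2, which encodes plasminogen activator inhibitor 2, a serpin known in macrophages that traps urokinase and tissue plasminogen activator, had the widest difference of the 9. Its values were 2.54, 2.47, 2.63 and 2.80 in normoosmotic and 4.31, 5.56, 3.69 and 4.71 in hypoosmotic livers. All 4 normoosmotic values lay below 3.37, near background, and all 4 hypoosmotic values lay above it. The difference was 1.96 ± 0.31 (SE, interval 1.29 to 2.63). Because the lower group was near background, the fold is not exact, and the hypoosmotic mean of 4.57 stood 1.19 above the near-background level. The hypoosmotic arrays differed more among themselves (SD 0.78) than the normoosmotic ones (SD 0.14), with replicate 2 highest and replicate 3 lowest. Without hypoosmotic replicate 2 the difference was 1.63 and without hypoosmotic replicate 3 it was 2.25. Serpinb2 passed in all 8 fits without 1 array and against a minimum fold change of 1.2. These fits reuse the arrays of the known comparison, so the passes are described and support nothing further.

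Serpine2 encodes protease nexin 1, a serpin of cell surfaces and matrix that inhibits thrombin, urokinase and plasmin. Its values were 5.28, 5.66, 5.47 and 5.24 in normoosmotic and 6.14, 6.07, 5.79 and 5.89 in hypoosmotic livers. Every hypoosmotic array lay above every normoosmotic one, by 0.56 ± 0.13 (SE, interval 0.28 to 0.84) on average, or 1.47-fold. It passed in 3 of the 8 fits without 1 array, and not without normoosmotic replicate 1, 3 or 4 or hypoosmotic replicate 1 or 2.

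Serpinf2, the gene of alpha-2-antiplasmin, the main inhibitor of plasmin in blood, had 10.14, 10.11, 9.94 and 10.06 in normoosmotic and 10.25, 10.22, 10.23 and 10.18 in hypoosmotic livers. The groups did not overlap, but the lowest hypoosmotic and the highest normoosmotic value were close. The difference of 0.16 ± 0.09 (SE, interval -0.05 to 0.36) did not pass in any of the 8 fits without 1 array or under any other setting run. Serpinf2 and Plg, the members that hepatocytes are known to make, had the smallest SDs of the 9 in both groups.

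At the start of coagulation, F3 was lower in hypoosmotic livers, and the mean of its inhibitor gene Tfpi was nearly the same in both groups. F3, tissue factor, had 7.95, 7.39, 7.48 and 7.83 in normoosmotic and 7.10, 7.05, 7.05 and 6.40 in hypoosmotic livers. All hypoosmotic values lay below all normoosmotic ones, and hypoosmotic replicate 4 lay well below the other 3. The difference was -0.76 ± 0.18 (SE, interval -1.16 to -0.37), or 1.7-fold lower, and -0.60 without hypoosmotic replicate 4. F3 passed in 4 of the 8 fits without 1 array, and not without normoosmotic replicate 1, 3 or 4 or hypoosmotic replicate 2.

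Tfpi had 6.53, 6.49, 6.97 and 6.72 in normoosmotic and 6.17, 7.14, 7.01 and 6.12 in hypoosmotic livers. Hypoosmotic replicates 2 and 3 exceeded every normoosmotic array, and hypoosmotic replicates 1 and 4 were below all of them. The group means hardly differed (-0.07 ± 0.23 SE, interval -0.58 to 0.44), and the sign depended on the array left out (-0.24 to 0.10). The spread of Tfpi in the hypoosmotic group (SD 0.54) was wider than in the normoosmotic group (SD 0.22).

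**Figure D2:**
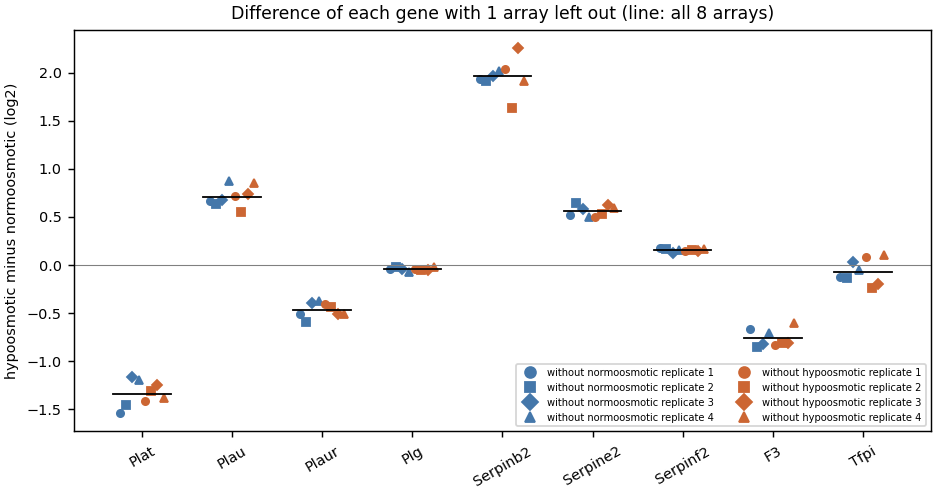
Difference between groups (vertical axis, log2, hypoosmotic minus normoosmotic) for each gene with all 8 arrays (line) and with each array left out (symbols). Plat stays between -1.54 and -1.16 and Serpinb2 between 1.63 and 2.25, while Tfpi crosses 0.

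If normoosmotic replicate 1 or 3 or hypoosmotic replicate 2 was left out, Serpinb2 and Plat were the 2 members past the threshold. Without normoosmotic replicate 2 or hypoosmotic replicate 4 there were 5. Over all genes the count fell to 468 without normoosmotic replicate 3 and was 1051 without hypoosmotic replicate 4.

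Cell types other than hepatocytes are known sources of several of these transcripts, and their markers were read on the same arrays. In whole liver, fewer cells of a type and less RNA per cell cannot be told apart. Counts of genes past the threshold, here and in the later lists, stand against 7.07% of all genes. For counts of signs and of unadjusted p-values the share over all genes is not given, so nothing is read from them. Endothelial markers had differences above 0 in 12 of 12 genes measured, with a median of 0.34, and 6 had an unadjusted p under 0.05 (limma). Their mean value was 5.51 to 5.76 on normoosmotic and 5.80 to 6.13 on hypoosmotic arrays, with no overlap, and 0 of 12 were near background in both groups. Only Kdr, a receptor for vascular endothelial growth factor, passed, from 6.87 ± 0.25 to 7.53 ± 0.24 (SD, n = 4 each, limma adjusted p = 0.028). Of the 8 fits without 1 array it passed only in those without normoosmotic replicate 3 or hypoosmotic replicate 4 (limma adjusted p 0.0254 to 0.0654 over the 8). The group with the higher endothelial means was the one with lower Plat and higher Serpine2. Within groups the arrays did not all follow this. Normoosmotic replicate 1 had the lowest endothelial mean (5.51) and the lowest Plat (7.84) of its group. Hypoosmotic replicate 3 had the highest endothelial mean (6.13) of its group, with its lowest Serpine2 (5.79) and its lowest Plat (6.85).

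Within the hypoosmotic group the endothelial mean was 5.87, 6.04, 6.13 and 5.80 on replicates 1 to 4, highest on replicates 2 and 3, on which Tfpi was also highest. The normoosmotic group did not show this, since its replicate 2 had the highest endothelial mean (5.76) and the lowest Tfpi (6.49). Kupffer cell markers had means of 6.43, 6.92, 6.44 and 6.10 on hypoosmotic replicates 1 to 4, with replicate 2 highest, as for Serpinb2 and Plau. Hypoosmotic replicate 4 had the lowest Kupffer cell mean and the lowest Plau of its group (4.43), but its Serpinb2 (4.71) was below only that of replicate 2. On normoosmotic arrays the Kupffer cell mean was 6.07 to 6.56, so the groups overlapped, and 0 of 11 markers passed (limma; 0 also had an unadjusted p under 0.05). None of the 11 was near background in both groups.

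Stellate cell and fibroblast markers had a median difference of 0.27, with 11 of 13 above 0. None of the 13 passed (limma; 4 had an unadjusted p under 0.05), with means of 5.77 to 5.91 on normoosmotic and 5.62 to 6.28 on hypoosmotic arrays, and Lum was near background. Of 12 monocyte and neutrophil markers 0 passed (limma; 2 unadjusted), with means of 4.05 to 4.19 and 4.14 to 4.32. Among them 7, including S100a8, S100a9, Mpo and Elane, were near background in both groups. Of 12 hepatocyte markers 0 passed (limma; 1 unadjusted), with a median difference of -0.05. Mesothelial markers had a median difference of 0.40, with 3 of 3 above 0 and 0 of 3 past the threshold (limma; 2 unadjusted). None of 5 cholangiocyte markers (limma; 0 unadjusted, median 0.03) and of 5 platelet and red cell markers (0 unadjusted, median 0.05) passed. The part of these cell types in the members' differences was not tested.

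**Figure D3:**
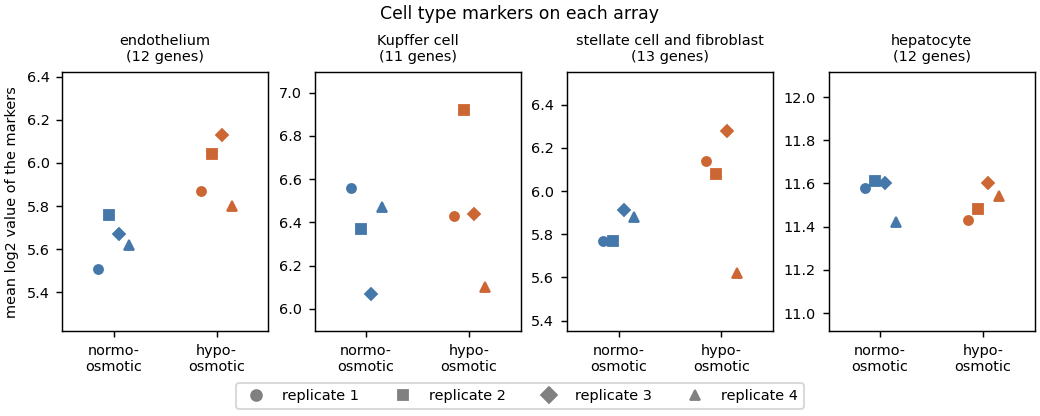
Mean log2 value (vertical axis) of the measured markers of 4 cell types on each array, with symbols for replicate numbers. Endothelial markers are higher on every hypoosmotic array, at 5.80 to 6.13 against 5.51 to 5.76, and the other 3 lists overlap between groups.

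The other genes of the pathway were listed by role, and the same fit was read for them. Of 8 further inhibitors and modulators of fibrinolysis 0 passed (limma; 2 had an unadjusted p under 0.05), and their median difference was 0.05. The smallest p-values were those of Thbd, thrombomodulin, which turns thrombin towards anticoagulation, and A2m, alpha-2-macroglobulin, a broad protease trap. Thbd had 3.06 to 3.49 in normoosmotic livers, close to the near-background level, and 4.24, 4.11, 3.98 and 3.11 in hypoosmotic replicates 1 to 4, a difference of 0.59 ± 0.22 (SE, limma adjusted p = 0.143). Of its 4 hypoosmotic values 3 lay above all normoosmotic ones. It passed without hypoosmotic replicate 4 (adjusted p 0.00891 to 0.307 over the 8 fits without 1 array). A2m had a difference of 0.83 ± 0.32 (SE, limma adjusted p = 0.162) and passed without normoosmotic replicate 1, whose 7.78 was the highest of its group (0.0211 to 0.363 over the 8 fits). Vtn, vitronectin, an adhesive protein of plasma and matrix, differed little, at 11.84 ± 0.07 and 11.80 ± 0.01 (SD, n = 4 each).

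Receptors and clearance genes had a median difference of 0.29, against 0.02 over all genes, with 7 of 9 differences above 0. Of the 9 genes 1 passed, against 7.07% of all genes, and 4 had an unadjusted p under 0.05 (limma). Anxa2, annexin A2, which binds plasminogen and tissue plasminogen activator at the cell surface, rose from 5.56, 6.39, 6.07 and 6.65 to 6.71, 6.99, 7.08 and 7.41. The groups did not overlap, although the highest normoosmotic and lowest hypoosmotic values were close. Its difference was 0.88 ± 0.22 (SE, limma adjusted p = 0.0366). It passed in 2 of the 8 fits without 1 array (adjusted p 0.0308 to 0.0977, highest without normoosmotic replicate 3), namely without normoosmotic replicate 4 or hypoosmotic replicate 1. S100a10, its partner in the surface complex, named after its values were seen, had a difference of -0.14 ± 0.20 (SE, limma adjusted p = 0.78). Eno1, alpha-enolase, which also binds plasminogen, had a difference of 0.29 ± 0.09 with no overlap (limma adjusted p = 0.0938). Lrp1, the endocytic receptor that clears activator and inhibitor complexes, named after its values were seen, had 0.63 ± 0.21 (limma adjusted p = 0.097). Lrp1 passed without normoosmotic replicate 2 (adjusted p 0.0365 to 0.229 over the 8 limma fits without 1 array) and with the replicate number as a term of the fit.

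**Figure D4:**
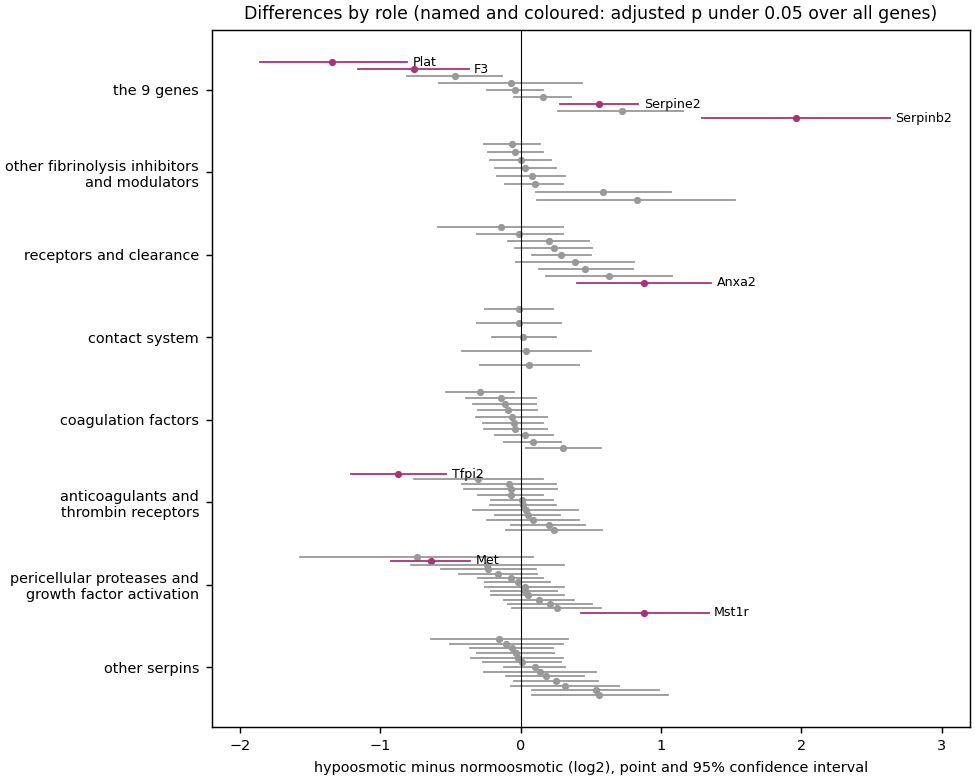
Difference between groups (horizontal axis, log2, hypoosmotic minus normoosmotic) with its 95% confidence interval for the 9 genes and for 7 lists of related genes. Named, coloured points passed over all genes: Plat, F3, Serpine2 and Serpinb2 of the 9, and Anxa2, Tfpi2, Met and Mst1r of the lists. Contact system and coagulation genes cluster around 0.

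The contact system, which activates plasminogen slowly through kallikrein, had 0 of 5 genes past the threshold (limma; 0 unadjusted), and differences from -0.01 to 0.06. Kng1 and Kng2 are close copies whose probes may share signal. F11 and F12 had differences of 0.06 ± 0.16 and 0.02 ± 0.10 (SE, limma adjusted p = 0.889 and 0.942), and both changed sign with the array left out. Of 10 coagulation factor genes, made mostly by hepatocytes, 0 passed (limma; 2 unadjusted), with a median of -0.06. F5 had a difference of -0.29 ± 0.11 (SE, limma adjusted p = 0.15) and F7, the partner of tissue factor, one of 0.30 ± 0.12 (limma adjusted p = 0.177). In neither did the groups overlap, but they nearly met. The lowest normoosmotic F5 value was 8.84 and the highest hypoosmotic one 8.81. For F7 the highest normoosmotic value was 7.59 and the lowest hypoosmotic one 7.61. F9 and Vwf were not analysed here.

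Among 12 anticoagulants and thrombin receptors 1 passed, 1 had an unadjusted p under 0.05 (limma), and the median was 0.01. Tfpi2, a matrix-bound Kunitz inhibitor that blocks plasmin and other trypsin-like proteases, fell from 9.25, 9.17, 9.19 and 9.12 to 8.61, 8.25, 7.85 and 8.53. The normoosmotic values were tight, and every hypoosmotic value lay below them. The difference was -0.87 ± 0.15 (SE, limma adjusted p = 0.00931), or 1.83-fold lower, and it passed in all 8 fits without 1 array (0.00896 to 0.0319). Proz, the cofactor of an inhibitor of factor Xa, had a difference of 0.20 ± 0.12 (limma adjusted p = 0.411).

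Through pericellular proteolysis, urokinase and related proteases activate hepatocyte growth factor. Of 14 genes of pericellular proteolysis and growth factor activation, 1 passed as higher and 1 as lower in hypoosmotic livers (limma). The lowest difference of the list, -0.74, was that of a gene that did not pass. An unadjusted p under 0.05 (limma) was found for 2 of the 14. Met, the receptor of hepatocyte growth factor, fell from 9.13, 8.89, 8.90 and 8.61 to 8.19, 8.13, 8.21 and 8.44. The groups did not overlap, the difference was -0.64 ± 0.13 (SE, limma adjusted p = 0.0141), and it passed in all 8 fits without 1 array (0.0154 to 0.0455). Mst1r, the receptor of macrophage-stimulating protein, rose from 4.51 ± 0.42 to 5.39 ± 0.29 (SD, n = 4 each), a difference of 0.88 ± 0.21 (SE, limma adjusted p = 0.028). It passed in 3 of the 8 fits (0.0218 to 0.0832, highest without normoosmotic replicate 3), and not without normoosmotic replicate 3 or 4 or hypoosmotic replicate 1, 2 or 4. Their ligand genes, named after their values were seen, differed little, with 0.03 ± 0.13 for Hgf and 0.03 ± 0.10 for Mst1 (SE, limma adjusted p = 0.932 and 0.937).

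Other serpins were read beside Serpinb2 and Serpine2. Of 13 measured, 0 passed (limma; 2 unadjusted), the median was 0.10, and 7 were near background in both groups. Serpinb1a, an inhibitor of neutrophil proteases, had a difference of 0.56 ± 0.22 (SE, limma adjusted p = 0.169), and Serpinh1, a collagen chaperone, had 0.54 ± 0.21 (limma adjusted p = 0.162), both with overlapping groups.

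The genes beside each member on its chromosome were read by their order in the RefSeq table, 3 measured genes on each side. Of these 54 genes 3 passed, against 7.07% of all genes, and nothing is read from that count. The 3 were Polb near Plat, Ndst2 near Plau and Rhbdd1 near Serpine2, named after their values were seen. The differences were -0.55, -0.82 and -0.71 (limma adjusted p = 0.0461, 0.00781 and 0.00838). Ndst2 and Rhbdd1 passed in all 8 fits without 1 array, and Polb only in that without hypoosmotic replicate 1. Those of Ndst2 and Rhbdd1 are opposite in sign to those of Plau and Serpine2. Serpinb2 lies in a cluster of clade B serpins, and its 6 neighbours, Serpinb3, Serpinb11, Serpinb7, Serpinb10, Serpinb8 and Cdh7, had differences from -0.10 to 0.32, with 0 past the threshold (limma; 0 unadjusted). Of these 6, 5 had a mean level below 3.37, so a fall could not have been measured there, and Serpinb8 was the exception. Over all members 14 of the 54 neighbours were near background.

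The genes whose profiles over the 8 arrays were most like those of Serpinb2 and Plat were found by the root-mean-square difference between log2 values centred on each gene's mean. For Plat they were Csf2, the gene of a myeloid growth factor (0.23), Smox, spermine oxidase (0.25), and Rabif (0.27). These genes also had lower hypoosmotic means, with differences of -1.24, -0.99 and -1.22. For Serpinb2 they were Scnn1a, a sodium channel subunit (0.41), Cyp3a62, a cytochrome P450 (0.42), and Nptx2, a neuronal pentraxin (0.43), each with a difference of 1.36. Over 2 groups such likeness mostly reflects the group difference.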

How the data were processed

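The submitters' processing notes name RMA and the programs Transcriptome Analysis Console 4.0 and Affymetrix Expression Console. What each did is not stated, and the genome build is not given in the sources used here. The authors deposited log2 values for 27596 probe sets on 8 arrays. Scanner files were not used here, so detection calls were not made. Gene names came from the 2016 annotation of the platform, with symbols updated through RefSeq identifiers: 15316 had 1 symbol, 317 several, and 11963 were not named. The highest-mean probe set per gene left 14511 genes. All 9 members were found.

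The test was limma 3.58.1 (lmFit, eBayes; R 4.3.3) with group as the single term, both tails, and Benjamini-Hochberg adjustment over all genes. All other steps used Python 3.11.15. Members and lists were chosen with earlier results of these data known. Genes of the lists were named if they passed or had 1 of the 2 smallest p-values of a list, Vtn in any case, and cell type markers if they passed. Markers near background were named after their values were seen. For Serpinb2 and Plat the 3 genes nearest in profile were named. The fit was checked on simulated data with the spread of each gene. In these data 200 of 14511 genes were changed, while 1026 passed in the real data, so the recovery need not carry over exactly. The fit recovered 27 of 100 genes changed by 0.5 log2 units and 86 of 100 changed by 1.0. A gene with a change near 0.5 can therefore fail to pass. As alternatives, the fit was run with a block for replicate number, with array weights, with a robust variance trend, after quantile normalization, after median centring, without the dimmest 30% of genes, on the mean of probe sets, on every probe set, against a minimum fold change of 1.2 and without each array. Having 4 arrays a group limits the precision.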

Additional observations from a re-analysis of the deposited data

Results flagged for a closer look

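In 2 of the 50 groups of 4 values examined (25 genes in 2 groups), 1 array stood apart from the other 3 by more than Dixon's 95% critical value. Chance gives such a gap in about 1 in 20 groups. F3 was 6.40 on hypoosmotic replicate 4, while the other hypoosmotic values were 7.05 to 7.10. F11, coagulation factor XI, was 9.04 on hypoosmotic replicate 3, against 8.53 to 8.61 on the others.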

How the results depend on the processing

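The 9 members kept the sign of their difference under all 9 settings that used every array, and with 1 array left out only Tfpi changed sign. Against a minimum fold change of 1.2, 1 member passed, 83 of all genes did, and 0 passed among receptors and clearance, anticoagulants and thrombin receptors, and growth factor activation. With 1 array left out the counts were 2 to 5 members, 468 to 1051 of all genes, 0 to 1 further fibrinolysis inhibitors, 0 to 2 receptors and clearance genes and 1 to 2 growth factor activation genes. The main fit did not treat the replicate numbers as pairs. Same-numbered samples deviated together with correlations of 0.006, 0.257, 0.116 and 0.063. Samples numbered 2, 3 and 4 correlated best with their own number while those numbered 1 did not. This is a hint of pairing from the data, and the correlations do not settle it. With the replicate number as a block 5 members passed (Plaur added), 1029 of all genes, 1 fibrinolysis inhibitor (A2m) and 3 receptors and clearance genes (Anxa2, Lrp1 and Plgrkt). Of genes near 0, F12 turned to -0.03 with median centring and Vtn to 0.01 with quantile normalization. With 1 array left out F11 ranged from -0.07 to 0.16 and F12 from -0.02 to 0.08. F11 was below 0 without normoosmotic replicate 4 and, at -0.05, without hypoosmotic replicate 3, and F12 without hypoosmotic replicate 2. The cause was not tested. Signal near background limits Serpinb2 in normoosmotic livers.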
